A study of Mus musculus with 16 samples.

Results

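The T cell receptor beta chain genes were examined in thymocytes of mice that already carry a rearranged T cell receptor transgene. The set was every gene whose mouse symbol starts with Trbv (variable segments), Trbd (diversity segments), Trbj (joining segments) or Trbc (constant genes). Of 46517 gene identifiers in each library, 53 met this rule: 35 Trbv, 2 Trbd, 14 Trbj and 2 Trbc genes. All lie on chromosome 6 of the mouse genome build GRCm38, within 667.2 kb. The 35 Trbv comprise 22 annotated as functional variable genes and 13 annotated as pseudogenes.

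The RNA came from live CD4+CD8+ double-positive thymocytes, the stage after the beta chain has been made, sorted by flow cytometry from the thymus of 16 mice aged 6 to 7 weeks, with 1 library per mouse. Every mouse was of the NOD-AI4 strain, that is, NOD mice, which develop autoimmune diabetes, carrying the alpha and beta chains of AI4, a CD8 T cell clone that attacks pancreatic beta cells. The controls were 6 NOD-AI4 mice (3 males, 3 females). The other groups were 5 mice labelled NOD-AI4-Nfkbid-/- (4 males, 1 female) and 5 NOD-AI4-60A mice, which carry an Nfkbid transgene (3 males, 2 females). Nfkbid encodes a nuclear regulator of the transcription factor NF-kB. The promoter of either transgene and the Nfkbid allele are not given in the sources used here.

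Library totals were 17955743 to 35637813 estimated counts. Nfkbid had 32.7 ± 2.9 counts per 1000000 (CPM; SD, n = 6) in control mice, 31.6 ± 4.3 CPM (n = 5) in the group labelled knockout and 208.1 ± 72.1 CPM (n = 5) in the transgenic group. The counts did not show the ablation that the label names, but a gene-level RNA count measures neither the protein nor the allele. The label could therefore not be checked here. These libraries are called knockout-labelled, and single ones are numbered as in the labels. The prefix of the mouse identifiers separates the controls from both other groups. Group and identifier series therefore cannot be told apart in any comparison with controls. The double-positive label was met by the 9 marker genes of that stage, which summed to 4521 to 7112 CPM. Summed markers were 461 to 908 CPM for mature single-positive T cells (9 genes), 22.1 to 78.3 CPM for double-negative thymocytes (5 genes) and 3.12 to 29.0 CPM for B cells (6 genes). The other summed markers were at most 16.9 CPM for macrophages and monocytes, 8.76 CPM for dendritic cells, 6.67 CPM for natural killer and innate lymphoid cells, 1.96 CPM for thymic epithelium and 84.7 CPM for erythroid cells. Of 6 gamma-delta T cell markers, 3 were matched by symbol and summed to 375 to 705 CPM, most of it from Trdc. None of the matched markers was at 0 in every library.

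A beta chain gene is assembled in immature thymocytes by joining 1 D to 1 J segment and then 1 V segment to that DJ unit, a cut-and-paste reaction started by the RAG1-RAG2 recombinase. The constant gene is added by RNA splicing, and J cluster 1 is usually spliced to Trbc1 and J cluster 2 to Trbc2. A functional chain, paired with the pre-T alpha chain, stops further V-to-DJ joining on the other chromosome, a feedback known as allelic exclusion. A rearranged beta transgene is known to apply the same brake to the animal's own loci, so the share of beta variable transcripts on segments other than that of the transgene is a common readout of how complete the brake is. Unrearranged V segments can also be transcribed, and these gene-level values do not separate such germline transcripts from rearranged ones.

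The sequences below are those on which the results turn, taken from the GENCODE transcripts of GRCm38, which is the C57BL/6J reference and not the NOD genome. The V segments shown are the dominant one (Trbv1), the next highest (Trbv13-2), 1 of the many at a low level (Trbv12-2) and the inverted one (Trbv31). Each line gives the last 60 coding bases before the point of joining, 5′ to 3′, with the codon of the conserved cysteine that opens the antigen-binding loop in capitals (the first in-frame TGT or TGC within the last 24 bases).

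Trbv1 (chr6:40891826-40891885, plus strand): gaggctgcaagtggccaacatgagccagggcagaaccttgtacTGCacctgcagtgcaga

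Trbv13-2 (chr6:41121773-41121832, plus strand): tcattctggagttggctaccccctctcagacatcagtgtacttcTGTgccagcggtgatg

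Trbv12-2 (chr6:41119305-41119364, plus strand): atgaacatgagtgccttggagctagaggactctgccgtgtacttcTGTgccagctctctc

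Trbv31 (chr6:41557693-41557752, minus strand): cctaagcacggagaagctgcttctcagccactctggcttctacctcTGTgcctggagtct

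The D segments are shown whole because their length bears on the absence of counts: Trbd1 has 12 bases and Trbd2 has 14.

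Trbd1 (chr6:41533201-41533212, plus strand): gggacagggggc

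Trbd2 (chr6:41542163-41542176, plus strand): gggactgggggggc

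Of the J segments, the first of each cluster and the last of cluster 2 are shown, with the stretch TTTGGNNNNGG or TTCGGNNNNGG in capitals. It encodes the start of the conserved motif of phenylalanine, glycine, any residue and glycine. Read on the coding strand, 11 of the 14 Trbj hold it, and Trbj1-6, Trbj1-7 and Trbj2-6 do not hold these letters.

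Trbj1-1 (chr6:41533864-41533911, plus strand): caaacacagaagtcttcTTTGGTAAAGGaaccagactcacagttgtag

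Trbj2-1 (chr6:41542754-41542803, plus strand): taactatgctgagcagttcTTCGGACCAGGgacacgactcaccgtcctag

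Trbj2-7 (chr6:41543810-41543856, plus strand): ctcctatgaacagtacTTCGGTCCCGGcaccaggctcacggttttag

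The constant genes are shown over the 60 coding bases in which they differ most, with the differing bases in capitals. The stretch crosses an exon junction in both genes. The coding sequences of 518 bases are 95.56% identical, with 23 differing bases, 11 of them in this stretch. The longest identical run is 259 bases.

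Trbc1 (plus strand): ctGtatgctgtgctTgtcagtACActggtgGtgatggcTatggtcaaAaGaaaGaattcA

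Trbc2 (plus strand): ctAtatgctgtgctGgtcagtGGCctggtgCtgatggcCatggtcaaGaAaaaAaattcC

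A single variable segment, Trbv1, held nearly all beta variable counts in every mouse. Its share of all Trbv counts averaged 98.17% ± 0.83 (SD) over the 6 controls, 98.03% ± 0.38 over the 5 knockout-labelled and 97.84% ± 0.49 over the 5 transgenic libraries. The lowest share of any library was 96.54% and the highest 98.85%. By deposited TPM (a transcript abundance that is scaled for transcript length), the share was 97.68% on average, with a range of 96.03% to 98.63%. Trbv1 (ENSMUSG00000076461, chr6:40891229-40891885, plus strand) is the 5′-most segment of the locus, 155.5 kb from the next, Trbv2, and 641.3 kb from Trbd1. RefSeq lists Tcrb-V2 among its older names, and the beta chain of AI4 is described under the older nomenclature as a Vβ2 chain. The segment now called Trbv2 is a different one. Reads from the transgene and from an endogenous Trbv1 cannot be told apart in these values.

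Trbv1 was among the most abundant transcripts of these cells. Its mean deposited TPM of 9701 ranked 4 among all identifiers, behind Trbc2 at rank 2 with 13477 TPM, and Trbc1 ranked 13 with 4339 TPM. The summed TPM of all Trbv was 0.557 times that of the Trbc genes on average, with a range of 0.522 to 0.615 over libraries. On the CPM scale, Trbv1 in controls had a lowest value of 1931, a median of 2119 and a highest of 2282 CPM. In knockout-labelled replicates 1 to 5 it was at 1907, 1871, 1806, 1664 and 2110 CPM, and in transgenic replicates 1 to 5 at 2094, 1747, 1887, 1742 and 1831 CPM. The groups overlapped, with knockout-labelled replicate 5 and transgenic replicate 1 inside the control range and the other 8 below it. All 53 genes together held 0.763% to 1.005% of all counts.

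**Figure D1:**
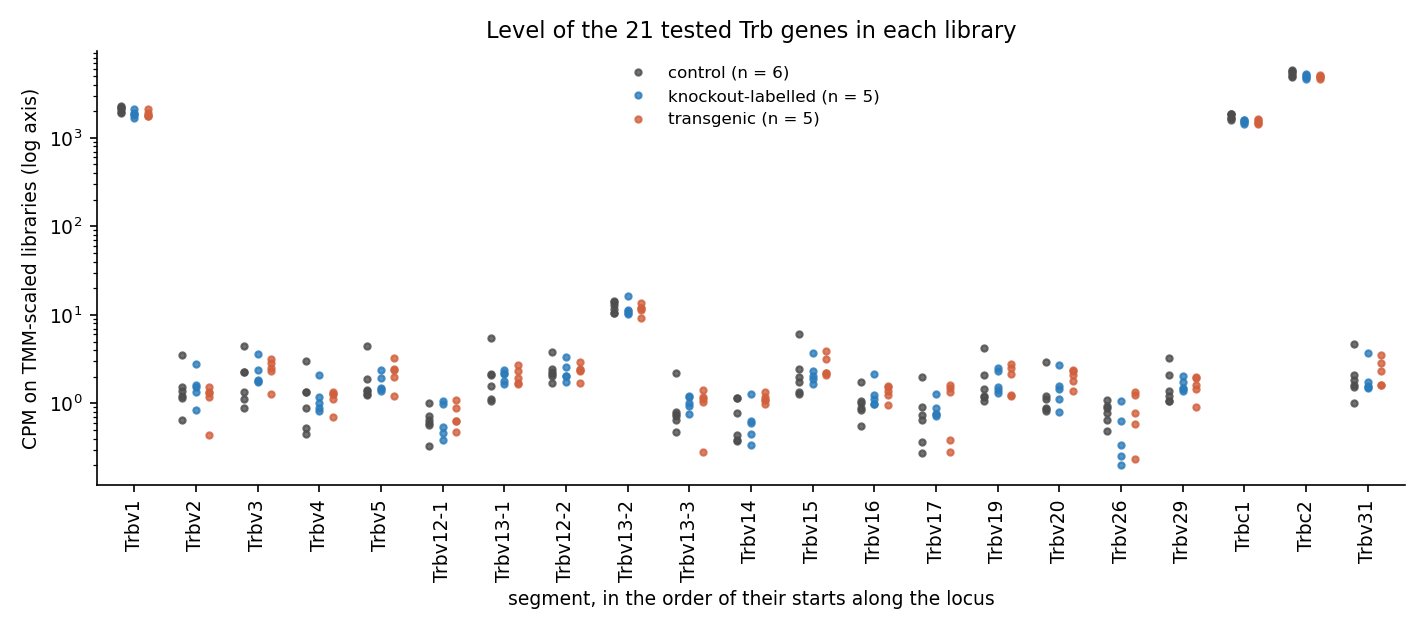
Level of each of the 21 tested Trb genes in each library, in CPM on library sizes scaled by the TMM method (log axis), in the order of their starts along the locus; each point is 1 library, coloured by group (control n = 6, knockout-labelled n = 5, transgenic n = 5). Trbv1 and the constant genes lie at 1428 CPM or above, Trbv13-2 between 9.24 and 16.25 CPM and the other variable segments at 6.12 CPM or below.

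The other Trbv segments were present at low levels, and most of the functional ones were detected in every mouse. Of the 21 functional segments other than Trbv1, 18 had at least 1 count in all 16 libraries, and these 18 are the ones that passed the filter on low counts. Trbv23 and Trbv30 had a count in 15 libraries, with at most 0.441 and 0.625 CPM, and Trbv21 had 4 counts in all. Of the 13 pseudogenes, 6 had any count, led by Trbv24 with 65 counts and Trbv12-3 with 25 over all libraries. The 7 pseudogenes Trbv7, Trbv9, Trbv10, Trbv11, Trbv18, Trbv27 and Trbv28 were at 0 throughout. Pseudogenes contributed 100 of 14341 counts outside Trbv1, or 0.697%. No functional segment was at 0 in every library.

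Trbv13-2 stood apart from the other minor segments in level and in steadiness. It lies in the middle of the V array (ENSMUSG00000076469, chr6:41121396-41121832, plus strand) and averaged 11.97 CPM over the 16 libraries, 4.77 times the next segment, Trbv15, at 2.51 CPM. Trbv1 was 163.5 times as high as Trbv13-2. In controls its lowest, median and highest values were 10.44, 12.39 and 14.40 CPM. Knockout-labelled replicates 1 to 5 had 10.52, 11.45, 10.19, 11.08 and 16.25 CPM, and transgenic replicates 1 to 5 had 12.05, 13.55, 11.25, 11.91 and 9.24 CPM. The groups overlapped throughout, with knockout-labelled replicate 5 the highest of all libraries. Trbv13-2 made up 31.8% of the counts outside Trbv1 on average. Its coefficient of variation over libraries was 15.3%, against 24.7% to 55.9% for the other 17 tested minor segments, whose lower counts carry more sampling noise. In 50-base windows, 0.344% of the Trbv13-2 transcript is shared with Trbv13-3 and none of Trbv1 is shared with another T cell receptor gene.

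The next segments by mean count were Trbv15, Trbv12-2, Trbv3, Trbv31, Trbv13-1, Trbv5, Trbv19 and Trbv29, with group means between 1.58 and 2.72 CPM. Trbv15 averaged 2.49 ± 1.83 CPM over controls, 2.33 ± 0.81 CPM over knockout-labelled and 2.72 ± 0.82 CPM over transgenic libraries. Trbv12-2 had 2.40 ± 0.73, 2.35 ± 0.64 and 2.36 ± 0.44 CPM in the same order. Both the order of these segments and the differences between groups lay within the spread of single libraries, as each ranged 2.24-fold to 5.10-fold over the 16 libraries. Per transcript length part of the order changed. Trbv15 had 14.5 TPM, Trbv31 13.9 TPM, Trbv12-2 13.03 TPM and Trbv13-1 12.8 TPM, against 78.2 TPM for Trbv13-2. Trbv5 had 11.4 TPM and Trbv29 10.02 TPM, while Trbv3 at 9.82 TPM and Trbv19 at 6.31 TPM were the lowest of these 8.

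Trbv31 is the only segment downstream of the constant genes, 9.34 kb beyond Trbc2 and in the opposite orientation, so that it joins by inversion. It was not set apart by its level. Controls had a lowest value of 0.999, a median of 1.71 and a highest of 4.75 CPM. Knockout-labelled libraries ranged from 1.49 to 3.75 CPM and transgenic ones from 1.60 to 3.55 CPM, so the 3 groups overlapped.

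No Trbd or Trbj segment had a count in any library. All 16 were at 0, which at the 3 counts that an observed 0 allows corresponds to at most 0.0852 to 0.166 CPM per library. The 14 Trbj are 46 to 53 bases long and the Trbd 12 and 14 bases, against 260 to 566 bases for the Trbv transcripts. Whether such short annotated features could receive a read under the submitters' alignment and counting was not tested, so the zeros do not measure J or D use. The number of counts assigned to them gave no J cluster to set beside the constant genes.

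Summed over both constant genes, transcripts exceeded those of the variable segments, while Trbc1 alone lay below Trbv1 in each group. Trbc2 (ENSMUSG00000076498, chr6:41546730-41548352, plus strand) was the higher of the pair, at 5335 ± 365 CPM over controls, 4939 ± 250 CPM over knockout-labelled and 4880 ± 169 CPM over transgenic libraries. Trbc1 (ENSMUSG00000076490, chr6:41538218-41539881, plus strand) was at 1755 ± 124, 1519 ± 69 and 1524 ± 84 CPM. In 50-base windows, 41.1% of the Trbc1 and 44.01% of the Trbc2 transcript are identical to the other gene, so how reads were divided between them rests on the submitters' estimate, and each level is uncertain to that extent.

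Against controls, Trbc1 was slightly lower in both other groups and Trbv1 in the transgenic group, while Trbc2 passed in neither comparison. Of the 21 members that passed the filter on low counts, 1 was called lower and 0 higher in knockout-labelled libraries by edgeR's quasi-likelihood test (adjusted p under 0.05 over all genes tested), where 26.4% of all 14933 genes were called in either direction. In transgenic libraries 2 were called lower and 0 higher, where 38.6% of all genes were called. In both comparisons the share of members called lay below the share over all genes. However, 18 of the 21 were minor Trbv with low counts and a larger SE than Trbv1, Trbc1 and Trbc2. A small change in them was less likely to be called, so the low share does not measure how little the locus changed. Both comparisons use the same controls and lie across the identifier series, and in sorted bulk samples fewer cells of a type and less RNA per cell cannot be told apart.

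Trbc1 was the member called in both comparisons. Its values were 1586 to 1871 CPM in controls with a median of 1769 CPM, against 1498, 1575, 1494, 1428 and 1601 CPM in knockout-labelled replicates 1 to 5 and 1465, 1592, 1632, 1437 and 1495 CPM in transgenic replicates 1 to 5. The groups met at 1 edge only: control replicate 6, at 1586 CPM, lay below knockout-labelled replicate 5 and transgenic replicates 2 and 3, and the other 5 controls lay above all others. The log2 fold change was -0.21 (SE 0.06, edgeR adjusted p = 0.0156) in knockout-labelled and -0.20 (SE 0.06, edgeR adjusted p = 0.00984) in transgenic libraries. The call in knockout-labelled libraries was lost without knockout-labelled replicate 1, the only female of that group (adjusted p = 0.0551), and in males alone (0.0570).

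Trbv1 was called lower in transgenic libraries, with a log2 fold change of -0.18 (SE 0.07, edgeR adjusted p = 0.0458), and had -0.16 (SE 0.07, edgeR adjusted p = 0.0906) in knockout-labelled ones. The transgenic call stood close to the threshold. It was lost without control replicate 4 (adjusted p = 0.0836), knockout-labelled replicate 1 (0.0563) or transgenic replicate 2 (0.0603), 3 (0.0614) or 4 (0.0557), in males alone (0.0639) and with library totals in place of TMM scaling (0.0534). In knockout-labelled libraries Trbv1 was called without control replicate 6 (-0.20, adjusted p = 0.0352) or knockout-labelled replicate 5 (-0.24, adjusted p = 0.0133). It was also called there with a minimum of 1 CPM in 5 libraries (edgeR adjusted p = 0.0440) and by DESeq2 (adjusted p = 0.0339). Trbc2 had -0.10 (SE 0.06, edgeR adjusted p = 0.191) in knockout-labelled and -0.13 (SE 0.06, edgeR adjusted p = 0.0824) in transgenic libraries. The transgenic value was called when control replicate 1 or 6, or any of knockout-labelled replicates 2 to 5, was left out (adjusted p from 0.0129 to 0.0493). It was also called by edgeR with RLE scaling (adjusted p = 0.0325), a minimum of 1 CPM in 5 libraries (0.0287) or the replicate number as a block (0.0378). DESeq2 called it as well (adjusted p = 0.0121).

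Between transgenic and knockout-labelled mice, which share an identifier series, no member was called different. edgeR called 0 of 21 where 1.17% of all genes were called, 1 member passed at an unadjusted p under 0.05, and DESeq2 also called 0. Trbv1 differed by -0.01 (SE 0.07), Trbc1 by 0.00 (SE 0.06) and Trbc2 by -0.02 (SE 0.06) on the log2 scale. The 1 member at an unadjusted p under 0.05 was Trbv14, with 0.88 (SE 0.35, edgeR adjusted p = 0.376). Its values were 0.976 to 1.33 CPM in transgenic libraries and 0.339, 0.639, 0.451, 0.597 and 1.26 CPM in knockout-labelled replicates 1 to 5, of which the last lay inside the transgenic range.

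**Figure D2:**
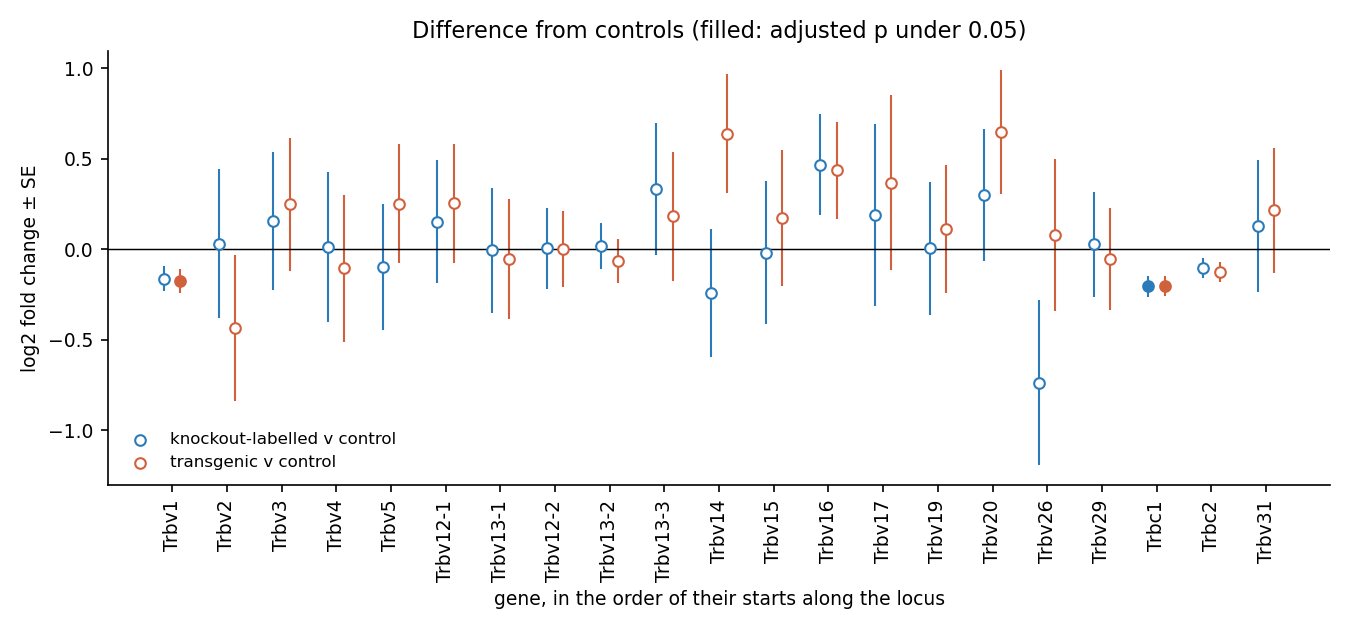
Log2 fold change against controls of each tested Trb gene, with bars of 1 standard error, for knockout-labelled (n = 5) and transgenic (n = 5) against control (n = 6) libraries; filled symbols have an edgeR adjusted p under 0.05. Only Trbc1 in both comparisons and Trbv1 in the transgenic one are filled, and the minor segments have wide bars on both sides of 0.

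None of the 18 tested minor Trbv was called in any comparison by edgeR. DESeq2, which applied another filter, called Trbv30 higher in transgenic libraries, at 0.401 ± 0.185 CPM against 0.146 ± 0.107 CPM in controls. In knockout-labelled libraries their log2 fold changes ran from -0.74 (Trbv26) to 0.47 (Trbv16) with a median of 0.02, against 0.02 over all genes tested, and 13 were positive and 5 negative. In transgenic libraries they ran from -0.43 (Trbv2) to 0.65 (Trbv20) with a median of 0.18, against 0.03 over all genes, again 13 positive and 5 negative. Their smallest adjusted p values were 0.233 and 0.136. Without control replicate 6, Trbv14 and Trbv20 were called higher in transgenic libraries (log2 fold changes of 0.87 and 1.01, edgeR adjusted p = 0.0356 and 0.00808, against 0.64 and 0.65 with all libraries, adjusted p = 0.136 and 0.145).

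The share of Trbv counts on segments other than Trbv1, the readout of allelic exclusion available here, showed no difference between the groups larger than the spread of single mice. In control replicates 1 to 6 it was 1.74%, 1.15%, 1.75%, 1.40%, 1.51% and 3.47%. In knockout-labelled replicates 1 to 5 it was 1.56%, 1.88%, 1.82%, 2.04% and 2.57%, and in transgenic replicates 1 to 5 it was 1.75%, 2.79%, 2.35%, 2.31% and 1.59%. All 3 groups overlapped, and control replicate 6 was the highest of all 16 libraries. The 95% Wilson interval of a single share was at most 0.373 percentage points wide, so counting error was small beside the differences between mice. Intervals cover counting error only.

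The control mean of this share was 1.84% ± 0.83, the knockout-labelled mean 1.97% ± 0.37 and the transgenic mean 2.16% ± 0.49. Exact two-sided permutation tests gave p = 0.777 for knockout-labelled against control, p = 0.472 for transgenic against control and p = 0.524 for transgenic against knockout-labelled (0.848 each after Benjamini-Hochberg adjustment over the 12 such tests). These tests depend on control replicate 6. Without it, the differences from controls were 0.46 percentage points in knockout-labelled and 0.65 percentage points in transgenic libraries, with an exact permutation p of 0.0397 each, which did not pass after adjustment (0.114). Without knockout-labelled replicate 5, the knockout-labelled difference was -0.01 percentage points.

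**Figure D3:**
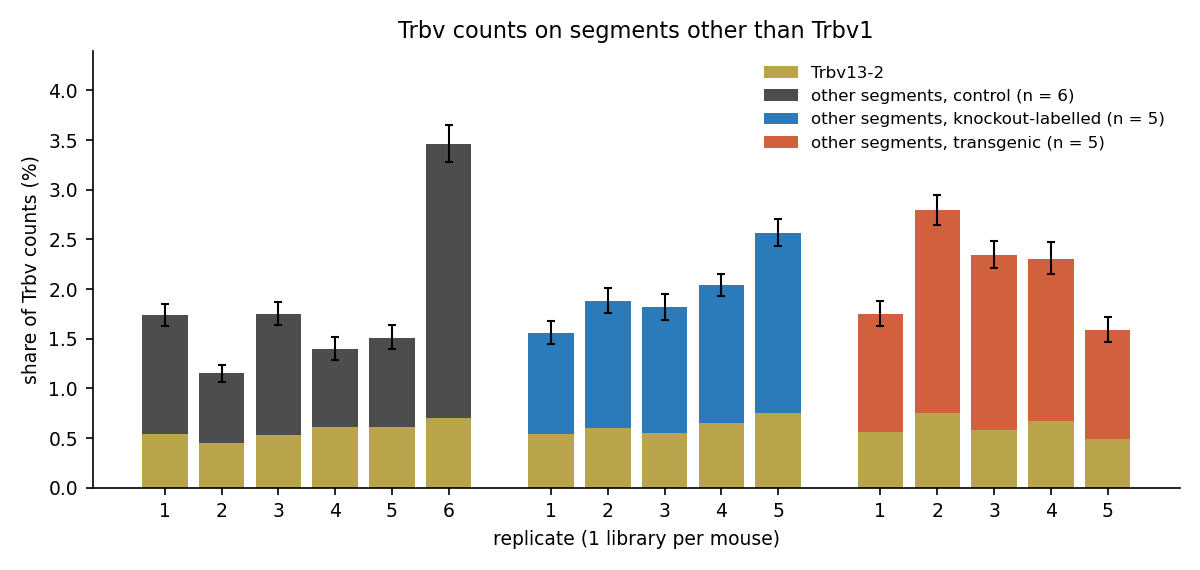
Share of Trbv counts on segments other than Trbv1 in each library (percent, bars from 0), split into Trbv13-2 and all other segments; error bars are 95% Wilson intervals of the whole bar. Control replicate 6 reaches 3.47% and all other libraries lie between 1.15% and 2.79%.

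The summed level of the other Trbv and their evenness were also compared, and no difference passed. The log2 of the summed CPM averaged 5.20 ± 0.49 over controls, 5.21 ± 0.34 over knockout-labelled and 5.33 ± 0.29 over transgenic libraries (exact permutation p = 0.961, 0.639 and 0.571, in the order of comparisons above). The effective number of segments, the inverse Simpson index, which equals the number of segments when all are equally frequent, was 7.20 ± 2.63, 7.62 ± 0.66 and 8.64 ± 1.15 (exact permutation p = 0.755, 0.284 and 0.127). The control value ranged from 4.63 to 11.7. Once Trbv13-2 was set aside, an exclusion chosen after its level was seen, the index of the remaining segments was 14.2 to 16.2 in every library.

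Control replicate 6 carried this rise over nearly the whole array. It was the highest control for 17 of the 18 tested minor segments and the highest of all 16 libraries for 13 of them. Segments of the same library are not independent, and the matching count over all genes is not given here. Its Trbv15 was at 6.12 CPM, where the median of the other 5 controls was 1.75 CPM, its Trbv13-1 at 5.41 against 1.59 CPM, and its Trbv31 at 4.75 against 1.60 CPM. Trbv13-2, at 14.40 against 11.75 CPM, moved less, and its Trbv1, at 1967 CPM, lay inside the control range. Beside this, the summed level of 9 double-positive markers was 4521 CPM in this library and 6064 to 7112 CPM in the other controls. The 9 mature single-positive markers summed to 786 CPM (461 to 594 CPM in the other controls) and the 5 double-negative markers to 60.2 CPM (22.1 to 34.3 CPM). The part of these cell types in the level of the minor segments was not tested.

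**Figure D4:**
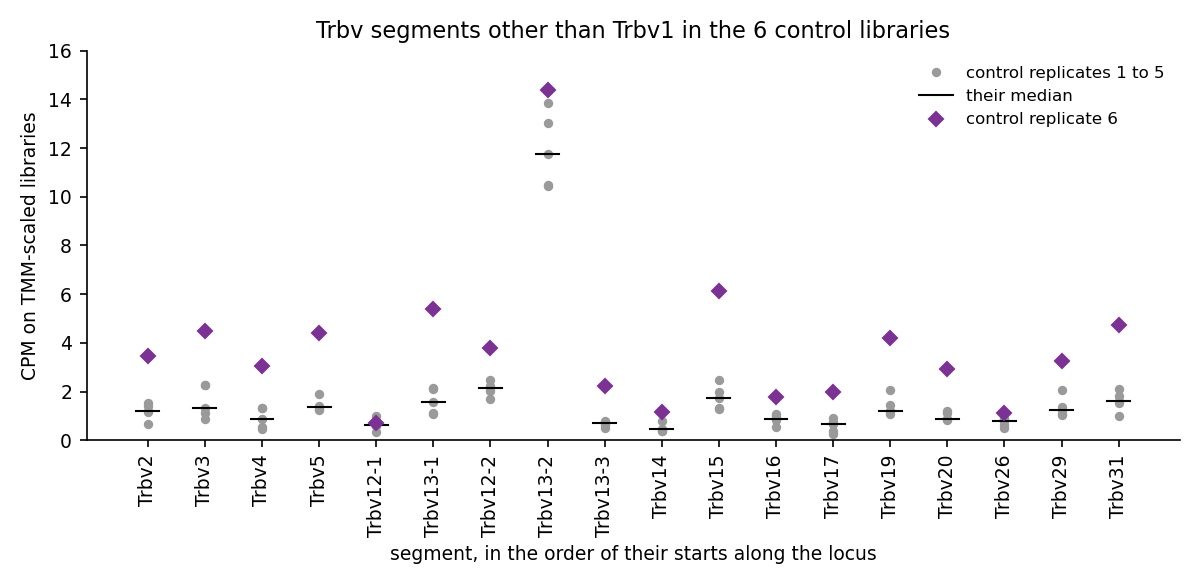
Level (CPM, linear axis) of the 18 tested minor Trbv segments in the 6 control libraries, in the order of their starts along the locus; grey points are control replicates 1 to 5, the line is their median and the diamond is control replicate 6. The diamond is the highest point for 17 of 18 segments, the exception being Trbv12-1.

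The constant genes also differed in proportion to each other between knockout-labelled and control libraries, a difference that passed in the main setting alone. No other comparison passed with all libraries included. Trbc1 held 24.75% ± 0.35 (SD, n = 6) of Trbc counts in controls, with single values of 24.39% to 25.23%. In knockout-labelled replicates 1 to 5 its share was 23.44%, 23.33%, 23.63%, 23.68% and 23.56%, all below every control. In transgenic replicates 1 to 5 it was 22.88%, 24.51%, 24.27%, 23.70% and 23.60%, which overlapped the controls only through replicate 2. The difference from controls was -1.22 percentage points in knockout-labelled libraries (exact permutation p = 0.00216, the smallest that 462 relabellings can give, adjusted p = 0.0260 over the 12 tests). It was -0.96 percentage points in transgenic libraries (exact permutation p = 0.00866, adjusted p = 0.0520). Transgenic and knockout-labelled libraries differed by 0.26 percentage points (exact permutation p = 0.357).

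The part of the division of reads common to both genes in the Trbc1 share was not tested, and group and identifier series cannot be told apart here. With deposited TPM in place of counts the knockout-labelled difference was -0.77 percentage points (adjusted p = 0.0520), and with relabelling within each sex it was -1.22 with an adjusted p of 0.0857. Leaving out any 1 library of the 2 groups, it stayed between -1.13 and -1.29 percentage points, with an adjusted p of 0.0520 to 0.0952. Within sex and with 1 library left out, the unadjusted p was in each case the smallest that the fewer relabellings can give. The transgenic difference passed without transgenic replicate 2 (-1.14 percentage points, adjusted p = 0.0286).

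**Figure D5:**
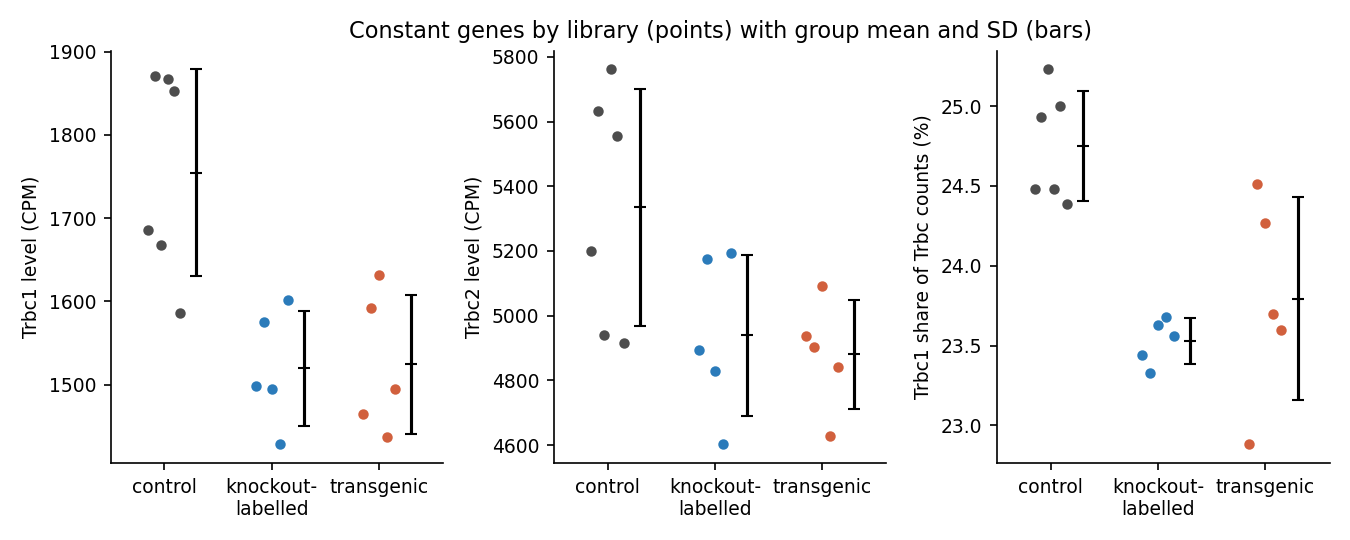
Level of Trbc1 and Trbc2 (CPM) and the Trbc1 share of Trbc counts (percent) in each library (points), with the group mean and SD (bars); axes do not start at 0. In the share panel all 5 knockout-labelled points, at 23.33% to 23.68%, lie below the 6 controls, at 24.39% to 25.23%.

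Trbv1 held a larger share of beta variable counts than the highest subfamily held of alpha variable counts. Among alpha chain variable genes (128 Trav), pooled by subfamily number, Trav12 held the most counts over its members together. How alike the members of a subfamily are was not measured. Its share of Trav counts was 69.2% to 79.1% with a median of 73.5% over libraries, and the next subfamily, Trav4, had a median of 3.95%. The Trbv1 share was higher than the Trav12 share in 16 of 16 mice, by 23.73 ± 3.65 percentage points (exact sign-flip permutation p = 3.05e-05, the smallest that 65536 sign flips can give). Both subfamilies were taken because they were the highest of their locus in these same libraries. The p-value does not account for that choice, so the difference is given as a description only. The Trav12 share averaged 72.8% ± 2.9 over controls, 72.3% ± 1.8 over knockout-labelled and 78.1% ± 0.7 over transgenic libraries. Controls ranged from 70.6% to 78.2% and transgenic libraries from 77.2% to 79.1%, so these groups overlapped. Knockout-labelled libraries ranged from 69.2% to 73.7%, all below the transgenic ones, and this difference was not tested. No pair of group means of the Trbv1 share lay more than 0.32 percentage points apart. Whether the 2 patterns across groups differ was not tested.

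The genes that assemble the beta chain and act in its selection moved in both directions. All 32 listed genes were tested, and in knockout-labelled libraries 2 rose (Xrcc5 and Ptcra) and 3 fell (among them Prkdc and Dclre1c). In transgenic libraries 5 rose (Id3, Gata3, Xrcc5, Notch1 and Ptcra) and 9 fell (among them Lck, Bcl2l1, Prkdc, Satb1, Dclre1c, Rag2, Bcl11b and Rag1). The shares called, 5 and 14 of 32, stand beside 26.4% and 38.6% of all genes. Markers of other cell types also differed between transgenic and control libraries. Macrophage and monocyte markers summed to 10.57 to 16.92 CPM in transgenic libraries against 3.92 to 7.57 CPM in controls, and dendritic cell markers to 6.74 to 8.76 CPM against 1.55 to 3.13 CPM, with no overlap. Mature single-positive markers summed to 722 to 908 CPM against 461 to 594 CPM in control replicates 1 to 5, and double-positive markers, some of which are also in the list, to 4634 to 5230 CPM against 6064 to 7112 CPM. Control replicate 6 stood at 786 and 4521 CPM for the same marker lists. In knockout-labelled libraries the dendritic cell markers summed to 1.57 to 7.31 CPM and the macrophage and monocyte markers to 2.802 to 6.855 CPM. Mature single-positive markers there summed to 516.5 to 710.9 CPM and double-positive markers to 4714 to 6191 CPM. The part of these cell types in the changes of the list was not tested. The median log2 fold change of the list was -0.01 in knockout-labelled and -0.06 in transgenic libraries, against 0.02 and 0.03 over all genes. The knockout-labelled count of 5 became 10 without knockout-labelled replicate 5 and 8 without control replicate 6 or transgenic replicate 2. The transgenic count of 14 became 8 without transgenic replicate 1 and 9 without any of control replicates 3, 4 and 5. Between transgenic and knockout-labelled libraries 0 of 32 were called.

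Xrcc5 and Bcl11b were among the 3 members of the list with the smallest p, both in transgenic libraries. Xrcc5, which encodes the Ku80 subunit of the end-joining machinery, averaged 21.06 ± 1.38 CPM in controls and rose to 27.92 ± 1.18 CPM, a log2 fold change of 0.42 with an SE of 0.08 (adjusted p = 6.0e-04 by edgeR). Bcl11b, a transcription factor of T-lineage commitment, fell by 0.23 (SE 0.05, edgeR adjusted p = 0.00205) on the log2 scale. Of the 5 calls in knockout-labelled libraries 2 held under each of 25 alternative settings, Dclre1c among them. The call of Ptcra was lost under 6 settings, that of Xrcc5 in males alone (adjusted p = 0.0826) and that of Prkdc without control replicate 3 (adjusted p = 0.0711). Of the 14 calls in transgenic libraries 7 held under each of 25 alternative settings, among them Xrcc5, Bcl11b, Rag1, Prkdc, Dclre1c and Satb1. The calls of Ptcra, Gata3 and Id3 were lost under 19, 19 and 17 of them.

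Of 14 neighbours inside or beside the locus, such as the trypsinogen genes that lie inside it, 3 passed the filter (Prss2, Ephb6 and Trpv6) and 0 were called in any comparison. Prss2, a trypsinogen gene, averaged 1.42 ± 0.35 CPM over controls, 1.73 ± 0.35 CPM over knockout-labelled and 1.00 ± 0.14 CPM over transgenic libraries (-0.73, SE 0.21, edgeR adjusted p = 0.1282, transgenic against knockout-labelled). Ephb6, a receptor lacking kinase activity, had -0.15 (SE 0.10) in the same comparison, and Trpv6, a calcium channel, had -0.11 (SE 0.15) in knockout-labelled against control libraries. Of the gamma and delta constant genes only Trdc, the delta constant gene, was matched by symbol. Its mean in controls was 478.7 ± 74.0 CPM, and it rose to 633.9 ± 40.7 CPM in transgenic libraries (0.42 on the log2 scale with an SE of 0.11, adjusted p = 0.00795 by edgeR), a call lost in males alone (adjusted p = 0.0670). The mature single-positive, macrophage and dendritic cell markers given above were higher in the same libraries. Double-negative markers summed to 37.2 to 78.3 CPM there, against 22.1 to 60.2 CPM in controls. Natural killer and innate lymphoid markers summed to 5.12 to 6.67 CPM, against 2.11 to 5.08 CPM. The part of these cell types in the level of Trdc was not tested. Control replicate 6 was also the highest control for the gamma-delta markers, at 627.0 CPM against 424 to 511 CPM. Most of that sum is Trdc itself, so it is not a separate measure.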

How the data were processed

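Stranded total RNA libraries were made from sorted thymocytes, per the labels' protocols. The authors listed Bowtie 1.0.0, SAMtools 0.1.18 and edgeR 3.24.3 and the build GRCm38, per the submitters' processing notes; the program behind the counts was not given in the sources used here. Per gene and library, the deposited files give an expected count (estimated count) and a TPM value; 58.742% of counts above 0 were whole within 1e-06, the rest carrying fractions. Symbols came from GENCODE for 46005 of 46517 identifiers; the other 512 held 0.171% of counts.

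Estimated counts were rounded and fitted with edgeR 4.0.16 in R 4.3.3 (filter on expression by group, TMM scaling, robust quasi-likelihood, group and sex, 16 libraries, 12 residual degrees of freedom, Benjamini-Hochberg adjustment over 14933 genes, threshold 0.05). Shares, levels and the inverse Simpson index were compared by exact two-sided permutation over libraries (12 tests). CPM are on TMM-scaled library sizes and errors are SD. Of the 53 genes, 21 were tested and 32 were not. Replicates are separate mice by their identifiers, and none was a repeat run (chi-square per degree of freedom 4.28 to 72.1 within groups). The script was tested on simulated data.

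Genes described singly were the constant and D genes, the 9 highest Trbv by mean count, Trbv31, members called and, of each list, the 3 with the smallest p. Trbv14, Trbv16, Trbv20, Trbv26, Trbv2 and the untested segments were named after their values were seen. The result of 1 listed gene is not reported here. The members and lists were chosen with earlier results of these data known. Alternatives were DESeq2 1.42.0, other scalings and filters, a fit lacking the sex term, fits on 2 groups or on males, the replicate block, TPM, functional segments only, relabelling within sex and leaving out each library; leaving out Trbv13-2, and all settings for the lists, were added after seeing the data.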

Additional observations from a re-analysis of the deposited data

Results flagged for a closer look

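Single libraries stood far from the rest of their group in 11 of 45 groups of values examined (the gap to the nearest library over the group's range exceeded Dixon's 95% critical value), where chance gives about 1 in 20; the values share libraries and segments and are not independent. All lay in control replicate 6 or knockout-labelled replicate 5.

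In control replicate 6, the share of Trbv counts outside Trbv1 was 3.47% (1.15% to 1.75% in the other controls), and the log2 of their summed CPM was 6.14 (4.73 to 5.25). In the same library Trbv15 was at 6.12 CPM (others 1.28 to 2.47), Trbv13-1 at 5.41 (1.07 to 2.14), Trbv31 at 4.75 (0.999 to 2.11) and Trbv5 at 4.42 (1.24 to 1.90). Trbv19 was at 4.19 CPM (others 1.07 to 2.07) and Trbv12-2 at 3.81 (1.70 to 2.47).

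In knockout-labelled replicate 5, the log2 of the summed CPM of the other Trbv was 5.80 (4.92 to 5.16 in the others of its group). Trbv31 was at 3.75 CPM (others 1.49 to 1.76) and Trbv13-2 at 16.25 CPM (others 10.19 to 11.45).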

How the results depend on the processing

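With DESeq2 2 members were called in knockout-labelled against control and 4 in transgenic against control libraries (Trbv1, Trbc1 and Trbc2 lower, Trbv30 higher); with a minimum of 1 CPM in 5 libraries 2 were called in the first, and in males alone 0 and 1. Library totals gave 1 in transgenic against control. Leaving out 1 library gave 0 to 2 and 1 to 5. In transgenic against knockout-labelled libraries each setting gave 0.

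With the replicate number as a block 1, 5 and 0 members were called in the 3 comparisons (5: Trbv1, Trbc1 and Trbc2 lower, Trbv14 and Trbv20 higher). Same-numbered samples share only a number: over 15 same-numbered pairs the correlation of deviations from group means was -0.0884 to 0.273, over 0.1 in 1 pair, and 1 library correlated best with its own number.

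In transgenic against knockout-labelled libraries the Trbc1 log2 difference turned negative with RLE scaling (-0.0066), library totals (-0.0032), no filter (-0.015), the 1 CPM filter (-0.0081), males alone (-0.023), the replicate block (-0.0072) and DESeq2 (-0.0057), and lay at -0.0279 to 0.0207 leaving out 1 library; that of Trbv1 lay at -0.0562 to 0.0280. For knockout-labelled against control libraries, leaving out 1 library gave -0.14 to 0.20 for the log2 level of the other Trbv, -0.011 to 0.463 percentage points for their share, -0.0924 to 1.33 for their effective number and -1.29 to -1.13 points for the Trbc1 share. With TPM that level differed by -0.061 and the Trbc1 share by -0.77 points; relabelling within sex left the Trbc1 difference at -1.22, no longer passing, with p at the smallest value those relabellings allow. Without Trbv13-2 the effective number differed by -0.045. The Trbc1 share differed by -0.0878 points with TPM in transgenic against knockout-labelled libraries, and by -1.14 to -0.73 leaving out 1 library in transgenic against control.

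Of the 32 assembly and selection genes, knockout-labelled against control gave 8 calls with the replicate block and 8 with DESeq2 (4 to 10 leaving out 1 library), transgenic against control 9 with no filter (8 to 17), and transgenic against knockout-labelled 1 in males alone and 1 with the block. Neighbours gave 1 call in transgenic against control with RLE scaling, the 1 CPM filter, males alone and the block (0 to 1 leaving out 1 library). Trdc gave 0 calls in males alone. The cause of these changes was not tested. Low counts limit what can be said of the segments that were not tested.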
